A study of Rattus norvegicus with 9 samples.

Results

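Cadherins and protocadherins are membrane proteins with repeated extracellular cadherin domains, and they were described here in the frontal cortex of 9 male rats. A gene was taken as a member when the deposited table typed it as mRNA, its symbol was Cdh followed by a number or Pcdh followed by a number or by a, b or g, and its 9 counts summed to at least 90. Cdh5, the endothelial cadherin, was left out. The table held 83 such symbols among its 37209 genes and 73 of them were members, 42 clustered and 31 non-clustered. The rule used the summed count and no comparison between groups. The rats formed 3 groups of 3: Control rats (A1, A2 and A6), which stayed with their mothers until weaning, MS rats (B3, B4 and B6), kept from their mothers for 4 h a day from postnatal day (PND) 1 to 21, and MS+EA rats (C3, C10 and C16), which had the same separation. The MS+EA rats then received electroacupuncture (EA) at GV20 and GV29, a pair of points on the head, every other day from PND 61 to 81 under anaesthesia. By the study's methods the rats were Wistar and the Control and MS rats received the anaesthesia alone. The labels gave an age of 14 weeks. No group with sham EA was among the sequenced rats, so the effect of needling itself and that of EA cannot be told apart, and the litters of the rats were not given.

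Classical cadherins join neighbouring cells through equal molecules on both sides and hold the cytoskeleton through catenins, which shapes synapses and cortical layers. The clustered protocadherins lie in a tandem row of alpha, beta and gamma genes. Each of their variable exons has its own promoter, and alpha and gamma variable exons are spliced to constant exons that the members of a cluster share, whereas beta genes have none. A neuron uses a few of these promoters, and the combination gives it an identity by which its own branches avoid each other. The non-clustered protocadherins, of which delta1 and delta2 are the main subgroups, are single genes with roles in axon growth, dendrites and synapse number.

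The promoters of the beta and gamma members are shown first, because they share a short element that the choice of members did not use. Promoter sequences, from 250 bases before to 50 bases after the annotated start of a gene, came from RefSeq on the assembly GRCr8, a different build from the one used for counting, and 47 of the 73 members had one. The longest run of letters that all 14 beta promoters shared was GGTGGCGCTG, which was held by 0.146% of the 33469 promoters of the table on the strand of the gene and by 0.221% on either strand. The match lay between 46 and 229 bases before the annotated start, and in 12 of the 14 it began within 100 bases of it. Capitals mark the match, and the beta genes shown are 7 of those whose levels are described, picked after their values were seen.
Pcdhb3 (chr18:29285599-29285639, plus strand): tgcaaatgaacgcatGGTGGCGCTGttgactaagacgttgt
Pcdhb5 (chr18:29302399-29302439, plus strand): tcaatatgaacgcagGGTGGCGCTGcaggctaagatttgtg
Pcdhb6 (chr18:29320147-29320187, plus strand): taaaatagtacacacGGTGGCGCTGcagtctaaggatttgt
Pcdhb8 (chr18:29339253-29339293, plus strand): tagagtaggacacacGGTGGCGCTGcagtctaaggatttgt
Pcdhb9 (chr18:29379243-29379283, plus strand): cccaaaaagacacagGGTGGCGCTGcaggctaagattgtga
Pcdhb19 (chr18:29478759-29478799, plus strand): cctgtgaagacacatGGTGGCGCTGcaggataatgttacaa
Pcdhb20 (chr18:29485805-29485845, plus strand): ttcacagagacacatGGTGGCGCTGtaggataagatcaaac

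Of the 9 gamma promoters, 6 held the longer form CTCTGNGNGNCGCTGT, in which N is any base, against 0.0329% of all promoters on either strand. No promoter of a member held both forms. Both contain CGCTG, a common run of 5 letters that stood in 37% of all promoters on either strand, in 14 of 14 beta, 7 of 9 gamma and 16 of 23 non-clustered promoters. None of the 23 non-clustered promoters held either longer form. The letters were read off these promoters, so the shares describe them and are no test. The capitals below mark the gamma form in a member that differed between groups (Pcdhgc3), one that passed the adjusted p in DESeq2 but not in edgeR (Pcdhga2) and 2 for comparison.
Pcdhga2 (chr18:29745078-29745118, plus strand): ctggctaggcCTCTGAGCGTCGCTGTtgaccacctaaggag
Pcdhga10 (chr18:29825809-29825849, plus strand): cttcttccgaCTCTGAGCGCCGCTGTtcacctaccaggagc
Pcdhgb8 (chr18:29839491-29839531, plus strand): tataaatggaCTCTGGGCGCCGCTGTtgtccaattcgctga
Pcdhgc3 (chr18:29884061-29884101, plus strand): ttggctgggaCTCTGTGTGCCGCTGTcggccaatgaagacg

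Pcdhgc3 and Pcdhgc5, the gamma members with the lowest p between MS+EA and Control rats, had upstream sequences of different kinds. The 250 bases before the start of Pcdhgc3 held CGCTG 3 times, 26 CG pairs and 63.6% G and C, and those before Pcdhgc5 held no CGCTG, 3 CG pairs and 50.4% G and C. In the full stretches that follow, capitals mark CGCTG.
Pcdhgc3 (chr18:29883995-29884244, plus strand): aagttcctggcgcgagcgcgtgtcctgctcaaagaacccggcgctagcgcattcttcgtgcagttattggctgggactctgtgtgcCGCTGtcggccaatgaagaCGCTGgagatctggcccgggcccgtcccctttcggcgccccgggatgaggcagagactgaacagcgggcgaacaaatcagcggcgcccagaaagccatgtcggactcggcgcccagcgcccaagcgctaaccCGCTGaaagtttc
Pcdhgc5 (chr18:29898180-29898429, plus strand): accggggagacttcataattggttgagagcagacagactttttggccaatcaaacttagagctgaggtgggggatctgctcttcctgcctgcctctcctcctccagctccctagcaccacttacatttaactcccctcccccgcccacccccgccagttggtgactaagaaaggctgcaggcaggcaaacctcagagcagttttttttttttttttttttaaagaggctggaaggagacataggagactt

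The levels of the 73 members in every rat relative to the Control mean showed few genes that separated the groups. Levels are in CPM, counts scaled by TMM to a fixed library total, a unit not corrected for the length of a gene, so levels were compared between rats and not between genes. Values are given in the order A1, A2, A6 for Control, B3, B4, B6 for MS and C3, C10, C16 for MS+EA. A difference is a log2 fold change with its standard error (SE), n = 3 rats a group, and its p came from the quasi-likelihood test of edgeR, with Benjamini-Hochberg adjustment over 16837 genes. A gene was called where the adjusted p was below 0.05 and the change exceeded 1.5-fold.

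**Figure D1:**
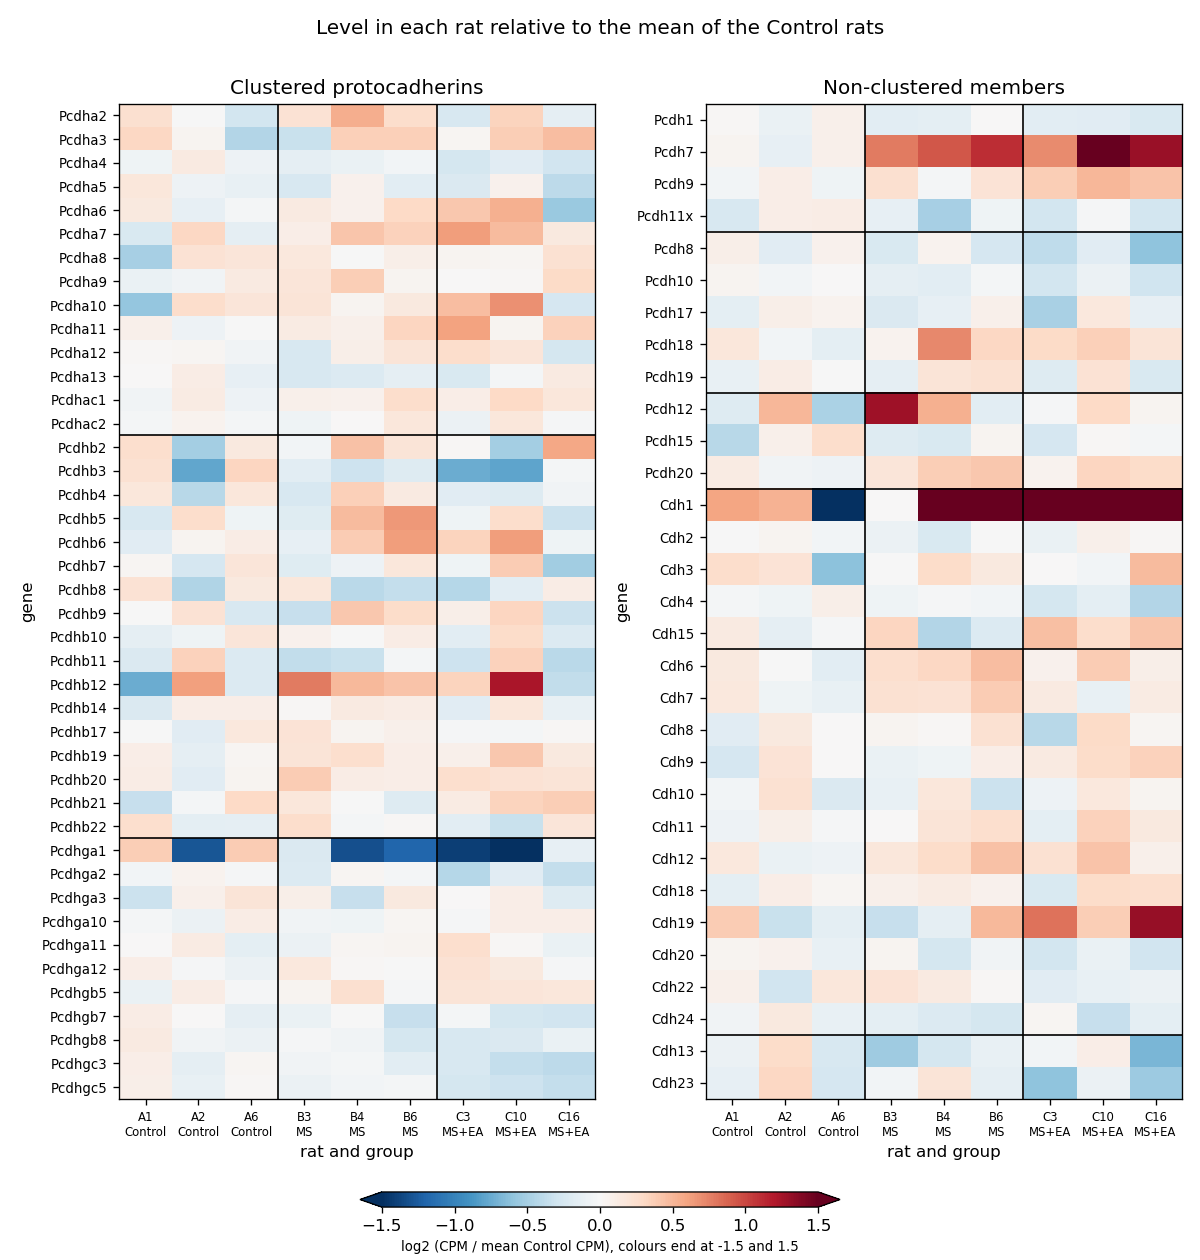
Level of each of the 73 members (rows, grouped by class) in each of the 9 rats (columns), as log2 of its CPM over the mean CPM of the 3 Control rats, with colours that end at a log2 ratio of 1.5 in either direction. Pcdh7 is red in all MS and MS+EA rats, Pcdhgc3 and Pcdhgc5 are blue in all MS+EA rats, and Pcdhga1 and several beta genes vary inside the groups.

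All 73 members passed the filter on low counts. The 14 alpha, 17 beta and 11 gamma members made up the clustered set. The non-clustered set held 4 delta1, 5 delta2 and 3 other protocadherins, 5 type I and 12 type II classical cadherins and 2 other cadherins. Just inside the limit of 90 counts stood Pcdhb12 with 134 counts over the 9 rats and Pcdh12 with 259, and outside it stood Cdh26 with 36, Pcdha1 with 30, Pcdhb1 with 16 and Cdh17 with 11. Pcdhga4, Pcdhga5, Pcdhga7, Pcdhga8, Pcdhga9 and Cdh16 had 0 counts in every rat, which allows up to 3 counts in a library, or 0.161 to 0.238 CPM. How reads on the constant exons shared by a cluster were counted was not given, so the split of counts between alpha names and between gamma names is uncertain and a 0 there is not an absence.

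Between MS and Control rats edgeR called 0 of the 73 members, against 0.0238% of all genes tested. At an unadjusted p under 0.05, 7 members (9.59%) differed, against 10.6% of all genes. All 7 were non-clustered and higher in MS rats, the direction of 7.06% of all genes, with 0 lower against 3.55%. In 8 members the groups did not overlap, against 17.6% of all genes. DESeq2 called 1 member here and 0 in the next comparison.

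Between MS+EA and MS rats edgeR called 0 members, against 0.0178% of all genes. At an unadjusted p under 0.05 stood 6 members (8.22%), against 12.4% of all genes, with 2 higher against 6.01% and 4 lower against 6.42%. In 9 members (12.3%) the groups did not overlap, against 17.9% of all genes, with 2 higher against 8.27% and 7 lower against 9.60%.

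Between MS+EA and Control rats 1 member was called, a higher one, against 1.37% of all genes, of which 1.25% were higher and 0.119% lower. The adjusted p alone was passed by 4 members (5.48%), against 5.40% of all genes, with 2 higher against 3.21% and 2 lower against 2.19%. At an unadjusted p under 0.05 stood 15 members (20.5%), against 22.5% of all genes, with 8 higher against 11.9% and 7 lower against 10.6%. In 16 members (21.9%) the groups did not overlap, against 25.9%, with 7 higher against 13.0% and 9 lower against 12.9%. Split by set, the 42 clustered and 31 non-clustered members had different shares at an unadjusted p under 0.05. Between MS and Control these were 0 clustered (0%) and 7 non-clustered members (22.6%), all higher, against 10.6% of all genes. For MS+EA against MS they were 3 clustered (7.14%) and 3 non-clustered members (9.68%), against 12.4%, and for MS+EA against Control 5 clustered (11.9%) and 10 non-clustered members (32.3%), against 22.5%. The difference between the 2 sets was not tested. The median log2 fold change of the members was 0.06 between MS and Control, -0.01 between MS+EA and MS and 0.03 between MS+EA and Control, beside -0.0014, 0.00059 and 0.0055 for all genes tested. The comparisons share rats, so the same samples stand behind more than 1 of these counts.

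**Figure D2:**
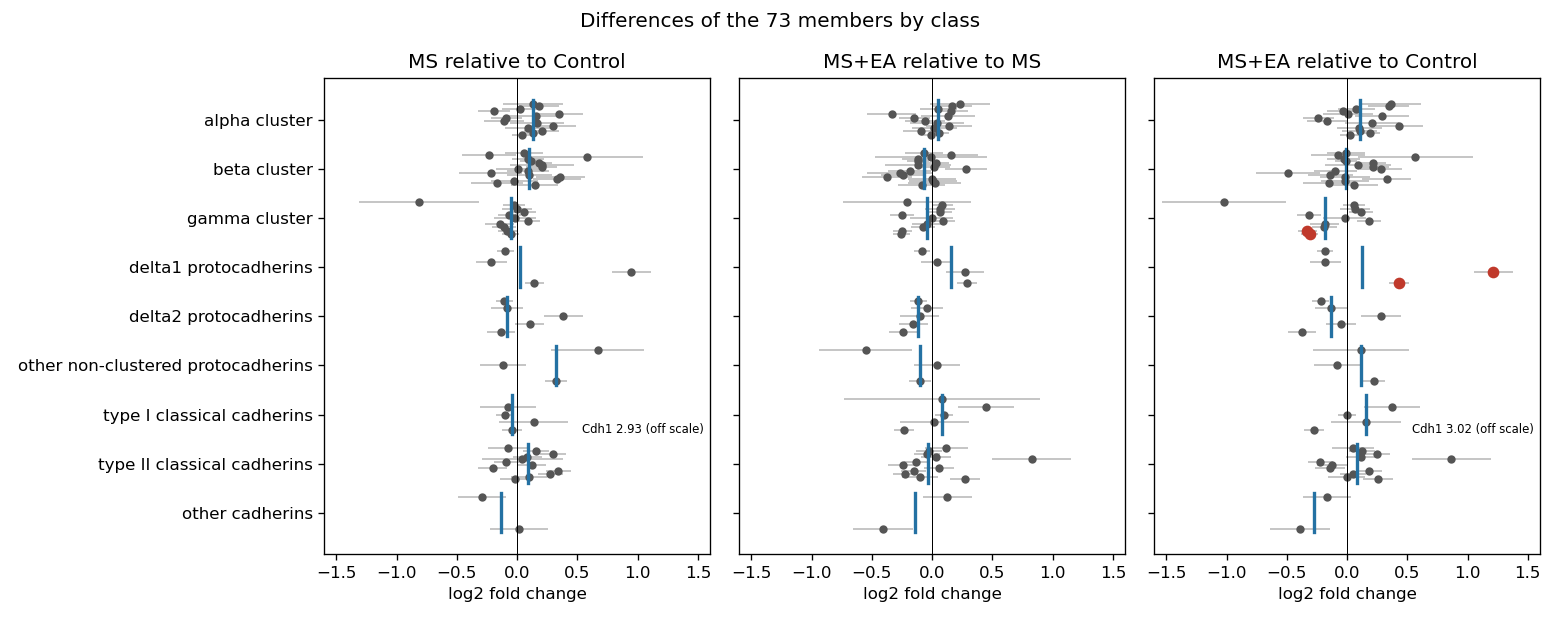
Log2 fold change of each member (points, with bars of 1 SE) by class in the 3 comparisons, with a blue line at the median of each class and red points at an adjusted p under 0.05. Red points appear only between MS+EA and Control rats, for Pcdh7 and Pcdh9 on the higher side and Pcdhgc3 and Pcdhgc5 on the lower, and Cdh1 lies beyond the axis in 2 comparisons.

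The delta1 protocadherins, which carry a binding site for protein phosphatase 1 in their cytoplasmic part, held the called member. Pcdh7, a delta1 protocadherin known from axon growth and dendritic spines, stood at 150.0, 134 and 154 CPM in the Control rats, at 251, 278 and 314 in the MS rats and at 238, 421 and 357 in the MS+EA rats. Every MS and MS+EA rat lay above every Control rat, while the MS and MS+EA rats overlapped. Pcdh7 rose in MS+EA rats relative to Control by 1.22 on the log2 scale (SE 0.162), 2.32-fold, with an edgeR adjusted p of 0.0048. It stayed past the threshold in each of 18 alternative fits, with values from 1.03 to 1.53. The difference between MS and Control was 0.95 (SE 0.161), 1.93-fold, with an edgeR adjusted p of 0.0578 that missed the threshold and that passed it in 7 of 18 alternatives, DESeq2 among them. Between MS+EA and MS rats the difference was 0.27 (SE 0.159, edgeR adjusted p = 0.508). Without C10, the rat with the highest level, it was 0.081, and without C3, the lowest MS+EA rat, it was 0.48. Without B4, C3 and C16, the rats with the highest sums of meningeal markers, it was 0.58. That omission was chosen after seeing the data. Here and in what follows it leaves C10 as the only MS+EA rat, so its values describe a single animal. In tissue RNA a lower number of cells of a type and less RNA per cell cannot be told apart, here and in what follows.

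Pcdh9, the other delta1 member that differed, was at 571, 626 and 557 CPM in Control rats, 688, 574 and 672 in MS rats and 753, 824 and 788 in MS+EA rats. All other rats lay below the MS+EA rats, and the Control and MS rats overlapped. The difference between MS+EA and Control was 0.43 (SE 0.08, edgeR adjusted p = 0.0137), 1.35-fold and so under the fold limit, and without A1 or A6 its adjusted p was 0.0727 or 0.0558. Against MS it was 0.29 (SE 0.0799), with an adjusted p of 0.236 in edgeR and 0.0476 in DESeq2. Pcdh1 went the other way, with 362, 333 and 377 CPM in Control, 320.1, 322 and 359 in MS and 320.2, 319 and 305 in MS+EA rats. No MS+EA rat reached the lowest Control rat, and the difference was -0.18 on the log2 scale (SE 0.0697, unadjusted p = 0.0216, edgeR adjusted p = 0.142). Pcdh11x, the X-linked delta1 member, had -0.22 in MS and -0.18 in MS+EA rats relative to Control, with edgeR adjusted p of 0.573 and 0.442. The delta1 sum thus went from 1147 ± 13.1 CPM in Control to 1310 ± 93.2 in MS and 1494 ± 132 in MS+EA rats (SD, n = 3), and without Pcdh7 and Pcdh9 it was 416 ± 22.7, 384 ± 27.4 and 367 ± 11.6.

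**Figure D3:**
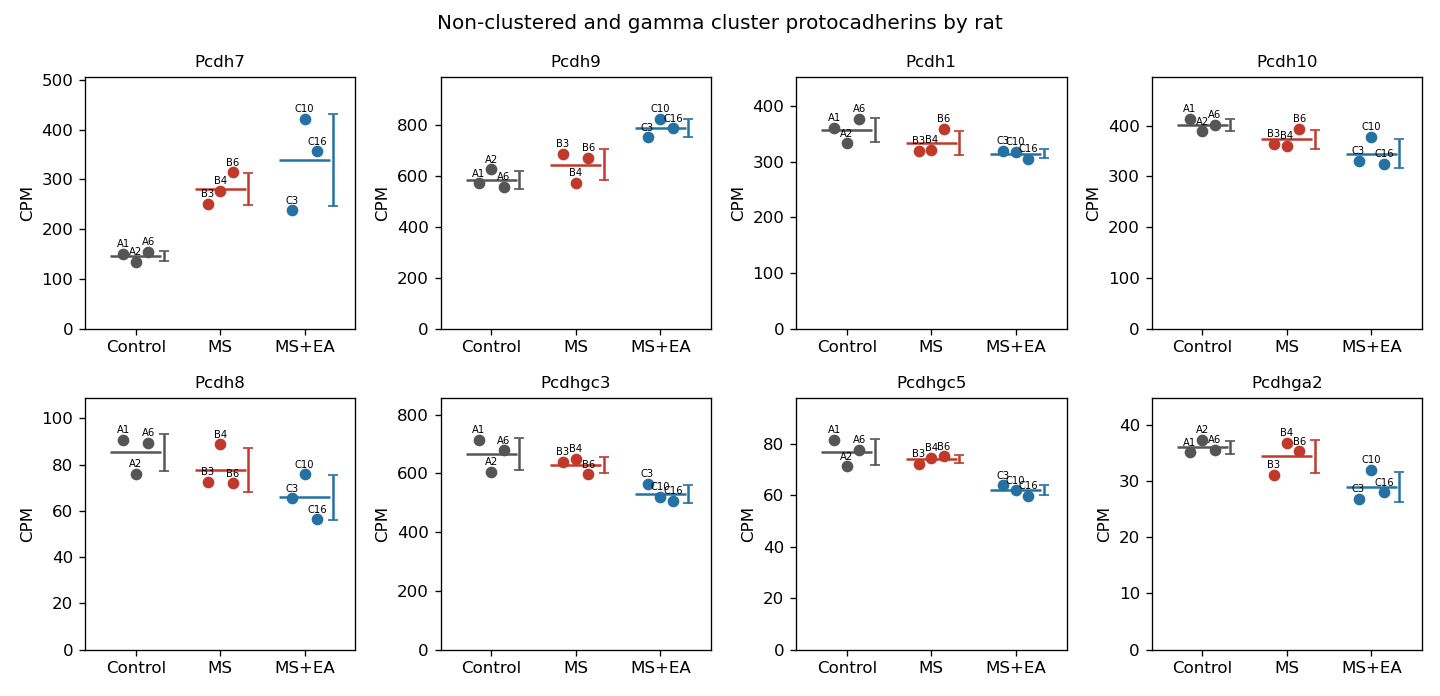
CPM of 8 protocadherins in each rat (points with the rat's name), with the group mean (line) and SD (bar, n = 3), on axes that start at 0. Pcdh7 is lowest in the 3 Control rats (134 to 154), Pcdh9 is highest in the 3 MS+EA rats (753 to 824), and Pcdhgc3 and Pcdhgc5 are lowest in the 3 MS+EA rats.

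Of the 5 delta2 protocadherins none passed the adjusted p in edgeR, while Pcdh8 and Pcdh10 passed it in DESeq2 between MS+EA and Control rats. Pcdh10, which takes part in the removal of excitatory synapses, had 413, 389 and 402 CPM in Control, 364, 361 and 394 in MS and 331, 378 and 325 in MS+EA rats. All MS+EA rats were below all Control rats, with a difference of -0.22 (SE 0.0717, adjusted p = 0.093 in edgeR and 0.0401 in DESeq2). Pcdh8, also called arcadlin, which is made after neuronal activity and takes N-cadherin off the surface, had 90.6, 75.9 and 89.3 CPM in Control, 72.6, 88.7 and 71.9 in MS and 65.4, 75.8 and 56.3 in MS+EA rats. Again the MS+EA rats lay below the Control rats, here narrowly, with a difference of -0.37 (SE 0.117, adjusted p = 0.0813 in edgeR and 0.0299 in DESeq2), and in edgeR with all genes of at least 1 count its adjusted p was 0.0162. Without B4, C3 and C16 the difference from Control was -0.09 for Pcdh10 and -0.17 for Pcdh8. The only MS+EA rat left was then C10, the highest of its group in both genes. Pcdh18, a partner of the adaptor Dab1, had 14.1, 12.1 and 11.3 CPM in Control and 12.9, 20.5 and 15.5 in MS rats, and its difference of 0.38 (SE 0.161, unadjusted p = 0.0338, edgeR adjusted p = 0.42) came with overlap of the groups and was 0.18 without B4. Pcdh17, a presynaptic protein of cortical and basal ganglia circuits, and Pcdh19, mutated in an epilepsy of females, had differences between -0.16 and 0.10 in the 3 comparisons, with edgeR adjusted p from 0.609 to 0.919. Among the other non-clustered protocadherins, Pcdh20, known from the placing of layer 4 neurons, was at 104, 91.8 and 90.7 CPM in Control, 108, 123 and 127 in MS and 99.3, 119 and 116 in MS+EA rats. The MS rats were all above the Control rats, with a difference of 0.32 (SE 0.0898, unadjusted p = 0.00352, edgeR adjusted p = 0.191). Pcdh12, an endothelial member, reached 3.56 CPM in B3 against 1.06 to 2.13 in the other rats. The 6 endothelial markers summed to 197 CPM in B3, 201 in B4 and 171 in B6, against 139 to 160 in Control and 151 to 183 in MS+EA rats. B4, with the highest sum, had 2.13 CPM of Pcdh12, and Cdh5 stood at 11.8 CPM in B3 against 11.8 to 14.5 in Control rats. The difference of Pcdh12 between MS and Control was 0.67 (SE 0.383, edgeR adjusted p = 0.56). It was 0.23 without B3 and 0.99 without A2, and the part of endothelial cells in it was not tested.

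In the gamma cluster the differences lay in a few members. Pcdhgc3, a C-type gamma protocadherin known for promoting dendrite branching, had 714, 605 and 678 CPM in Control, 640.0, 650.1 and 598 in MS and 565, 519.5 and 506 in MS+EA rats. Each MS+EA rat was below each other rat, and the Control and MS rats overlapped. Its difference between MS+EA and Control was -0.33 (SE 0.0758, edgeR adjusted p = 0.0304), 0.797-fold and so inside the fold limit. Pcdhgc5, another C-type member, known from inhibitory synapses, had 81.4, 71.2 and 77.6 CPM in Control, 72.3, 74.6 and 75.0 in MS and 63.8, 61.9 and 59.9 in MS+EA rats. Again the MS+EA rats were the lowest, with a difference from Control of -0.31 (SE 0.071, edgeR adjusted p = 0.0289). Both calls on the adjusted p depended on single rats. Without A1, A6, C10 or C16 the edgeR adjusted p of Pcdhgc3 was 0.134, 0.109, 0.0724 or 0.0986. That of Pcdhgc5 was 0.129, 0.0955, 0.0666 or 0.0876 in the same fits, and 0.0559 in a fit of the 6 rats alone. Relative to MS the differences were -0.25 (SE 0.0758) for Pcdhgc3 and -0.26 (SE 0.0711) for Pcdhgc5, with edgeR adjusted p of 0.253 and 0.236. Reads on shared constant exons could enter the counts of both genes, so the pair cannot be taken as independent.

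Markers of excitatory neurons moved with these gamma genes. The 6 markers summed to between 4368 and 5142 CPM in Control, 4492 and 4606 in MS and 3860 and 4005 in MS+EA rats, and none of them was at 0 in any rat. Of the 6, Slc17a7, the vesicular glutamate transporter, was lower in MS+EA than in Control rats by -0.30 (edgeR adjusted p = 0.0207), and Camk2a, a kinase of excitatory synapses, by -0.36 (edgeR adjusted p = 0.0387). The part of these cells in the gamma values was not tested.

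Pcdhga2 was at 35.1, 37.3 and 35.6 CPM in Control, 31.1, 36.8 and 35.2 in MS and 26.8, 31.96 and 28.0 in MS+EA rats. All Control rats were above all MS+EA rats, with a difference of -0.31 (SE 0.0973, adjusted p = 0.0781 in edgeR and 0.0483 in DESeq2). Without B4, C3 and C16 it was -0.17, with C10, the highest of its group in Pcdhga2, as the only MS+EA rat. The groups MS+EA and Control did not overlap in 2 more gamma members, Pcdhgb8 on the lower side (-0.19, SE 0.102) and Pcdhgb5 on the higher (0.18, SE 0.1), with edgeR adjusted p of 0.301 and 0.31. Pcdhga3, Pcdhga10, Pcdhga11, Pcdhga12 and Pcdhgb7 had edgeR adjusted p of at least 0.398 in that comparison. Of the 11 gamma members 7 had lower and 4 higher values in MS+EA than in Control rats, with a median of -0.19. Of the 16837 genes tested, 8263 were lower and 8574 higher. The gamma sum was 939 ± 63.0 CPM in Control, 893 ± 32.02 in MS and 779 ± 34.5 in MS+EA rats (SD, n = 3). Pcdhgc3 took 70.8% ± 1.21, 70.5% ± 0.631 and 68.1% ± 0.988 of the gamma counts in the 3 groups. The gamma sum thus followed mainly the count of this gene, which may include reads on the shared constant exons.

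The alpha cluster had no member past the adjusted p in any comparison with edgeR or DESeq2. Pcdhac2, the C-type gene with the most alpha counts, had 118, 125 and 118 CPM in Control, 115, 121 and 136 in MS and 114, 136 and 119 in MS+EA rats, which overlapped throughout. Pcdhac1, the other C-type alpha gene, had 59.4, 66.9 and 58.7, then 64.7, 64.5 and 73.8, then 66.0, 75.9 and 69.2 CPM. Its difference between MS+EA and Control was 0.19 (SE 0.086, unadjusted p = 0.0454, edgeR adjusted p = 0.212). Pcdha7 had 0.44 (SE 0.193, unadjusted p = 0.0422, edgeR adjusted p = 0.203) in the same comparison. Pcdha4 lay lower in every MS+EA rat (8.43 to 9.11 CPM) than in every MS rat (9.33 to 9.98) and Control rat (9.70 to 11.3), with an edgeR adjusted p of 0.302 against Control. Pcdha13 was lower in every MS rat (9.91 to 10.6) than in every Control rat (10.8 to 12.7), with an edgeR adjusted p of 0.636. Of the 14 alpha members 11 had higher values in MS than in Control rats and 11 in MS+EA than in Control rats, with medians of 0.13 and 0.10. Of the 16837 genes tested, 8375 and 8574 were higher in these comparisons. Both comparisons use the same Control rats, and reads on shared constant exons could enter several alpha names, so the members are not independent. The alpha sum was 287 ± 12.7, 302 ± 20.9 and 306 ± 22.1 CPM (SD, n = 3).

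No beta member stood at an unadjusted p under 0.05 in any comparison. Pcdhb19, at 27.7, 23.5 and 26.4 CPM in Control, 29.5, 30.9 and 27.8 in MS and 27.3, 34.4 and 28.5 in MS+EA rats, was higher in every MS rat than in every Control rat, narrowly. Its difference was 0.18 (SE 0.108, edgeR adjusted p = 0.569). Pcdhb20 separated MS+EA (11.8 to 12.3 CPM) from Control rats (9.21 to 11.2), with 0.22 (SE 0.133, edgeR adjusted p = 0.356). Pcdhb17, the beta gene with the most counts, had 47.7, 42.5 and 53.4, then 55.2, 49.4 and 50.5, then 47.3, 47.1 and 48.4 CPM, and the MS+EA rats lay below the MS rats by -0.12 (SE 0.0906, edgeR adjusted p = 0.62). The medians over the 17 beta members were 0.10, -0.07 and -0.0085 in MS against Control, MS+EA against MS and MS+EA against Control. The beta sum was 242 ± 12.6, 262 ± 14.1 and 247 ± 20.7 CPM (SD, n = 3).

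Several clustered genes varied strongly between rats of the same group. The biological coefficient of variation in the edgeR fit had a median of 13.8% over the 42 clustered members, 10.9% over the 31 non-clustered members and 12.4% over all genes tested. The coefficient depends on the count level of a gene, and these sets were not matched for it. Among clustered members with many counts it was 7.23% for Pcdhgc3 and 6.72% for Pcdhgc5. At the other end it was 42.8% for Pcdhga1, 31.3% for the low-count Pcdhb12, 22.5% for Pcdhb2 and 22.4% for Pcdhb3. Pcdhga1 had 8.83, 2.81 and 8.89 CPM in Control, 5.89, 2.75 and 3.01 in MS and 2.57, 1.41 and 6.28 in MS+EA rats. A1, A6, B3 and C16 were thus high, at 5.89 to 8.89, and the other 5 rats low, at 1.41 to 3.01, with both kinds in each group. Its log2 fold change of -1.02 between MS+EA and Control had an SE of 0.515 and an edgeR adjusted p of 0.263.

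A similar order of rats appeared in some beta genes, which were picked after their values were seen. Pcdhb3 had 12.7, 6.28 and 13.5, then 9.68, 8.69 and 9.50, then 6.45, 6.23 and 10.6 CPM, and Pcdhb8 had 11.4, 7.20 and 10.9, then 11.1, 7.44 and 7.70, then 7.28, 8.78 and 10.7 CPM. The rats highest in Pcdhga1 within their group were also highest in Pcdhb8 in the MS and MS+EA groups, and A1 and A6 were above A2 in all 3 genes. Pcdhb9 had 23.6, 27.4 and 19.96, then 18.6, 31.4 and 28.6, then 25.2, 29.6 and 18.998 CPM, and Pcdhb5 had 18.1, 25.7 and 20.5, then 18.95, 29.8 and 33.6, then 20.5, 25.7 and 17.2 CPM. In both, A2 was the highest Control rat, and B3 and C16 were the lowest rats of their groups.

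**Figure D4:**
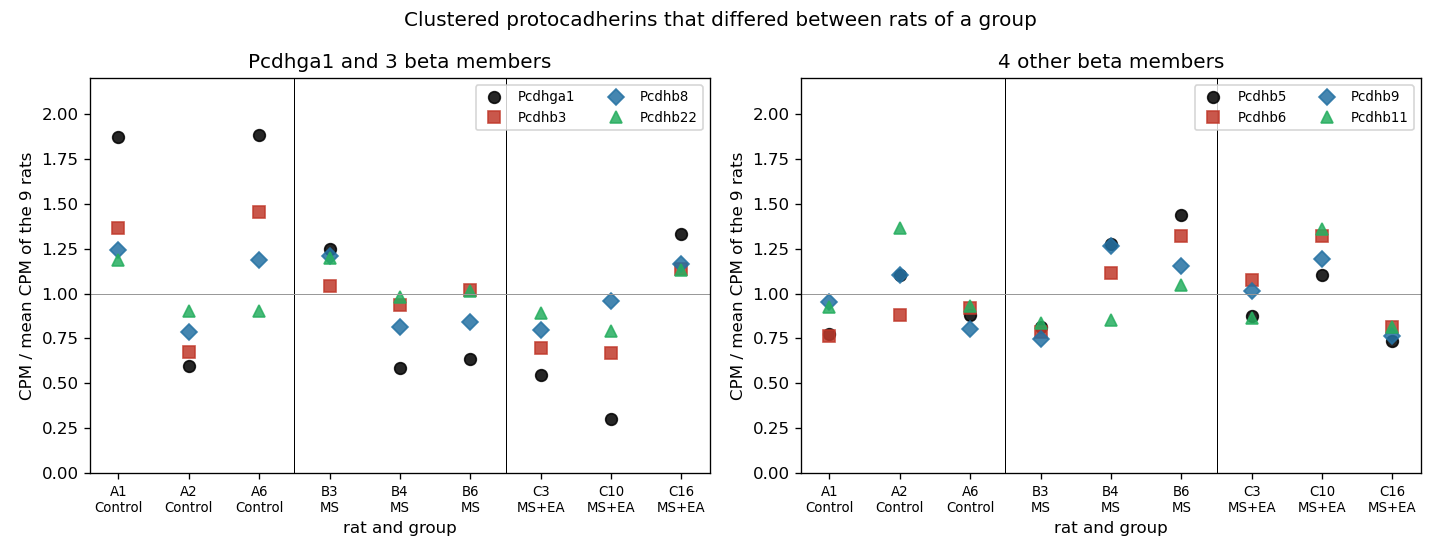
CPM of 8 clustered protocadherins in each rat divided by the mean of the 9 rats, with vertical lines between the groups. Pcdhga1, Pcdhb3, Pcdhb8 and Pcdhb22 (left) are above 1 in A1, B3 and C16, and Pcdhb5, Pcdhb6, Pcdhb9 and Pcdhb11 (right) are below 1 in the same rats.

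The classical cadherins of type I include N-cadherin, Cdh2, at synapses and E-cadherin, Cdh1, in epithelia. Cdh2 had 140.5, 145 and 137 CPM in Control, 133, 121 and 140.3 in MS and 131, 148 and 142 in MS+EA rats, with differences between -0.10 and 0.10 and edgeR adjusted p of 0.605 or more. Cdh4, or R-cadherin, had 65.9, 64.7 and 71.6, then 64.2, 66.7 and 65.4, then 56.2, 60.98 and 49.6 CPM. The MS+EA rats were below all other rats, with a difference of -0.28 (SE 0.0834, adjusted p = 0.0713 in edgeR and 0.0374 in DESeq2) against Control and -0.23 (SE 0.0835, edgeR adjusted p = 0.307) against MS. Without B4, C3 and C16 these were -0.15 and -0.09, with C10, the highest of its group in Cdh4, as the only MS+EA rat. Cdh15, the muscle cadherin, at 3.11 to 3.75 CPM in Control and 4.09 to 4.65 in MS+EA rats, had 0.37 (SE 0.231, edgeR adjusted p = 0.365).

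Cdh1 had the largest fold changes against Control and the largest spread among the members, with a coefficient of variation of 76.2%. It stood at 1.66, 1.59 and 0.062 CPM in Control, 1.11, 21.0 and 3.91 in MS and 7.98, 3.22 and 16.5 in MS+EA rats, the lowest value being 1 read. B4 and C16 were far above the others, and B3 lay within the range of the Control rats. The difference was 2.93 (SE 0.977, edgeR adjusted p = 0.283) between MS and Control and 3.02 (SE 0.982, edgeR adjusted p = 0.0909) between MS+EA and Control, and without B4 the first was 1.15. Both passed when all genes with at least 1 count were tested, with edgeR adjusted p of 0.00231 and 0.0007. Markers of meninges and fibroblasts moved with it. The 6 markers summed to 45.7, 34.9 and 35.3 CPM in Control, 48.3, 381 and 85.2 in MS and 117, 49.4 and 178 in MS+EA rats, none was at 0 in any rat, and 5 of the 6 were higher in MS than in Control rats at an unadjusted p under 0.05. The order of the MS rats and of the MS+EA rats was the same for the sum as for Cdh1. Without B4, C3 and C16, the 3 rats with the highest sums, the 2 differences of Cdh1 were 1.15 and 1.52. These rats were also the 3 highest in Cdh1 itself, so their omission had to lower both differences whatever the markers. It also left C10 as the only MS+EA rat, so it cannot show the part of meningeal tissue. The part of meningeal tissue in the Cdh1 values was not tested.

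**Figure D5:**
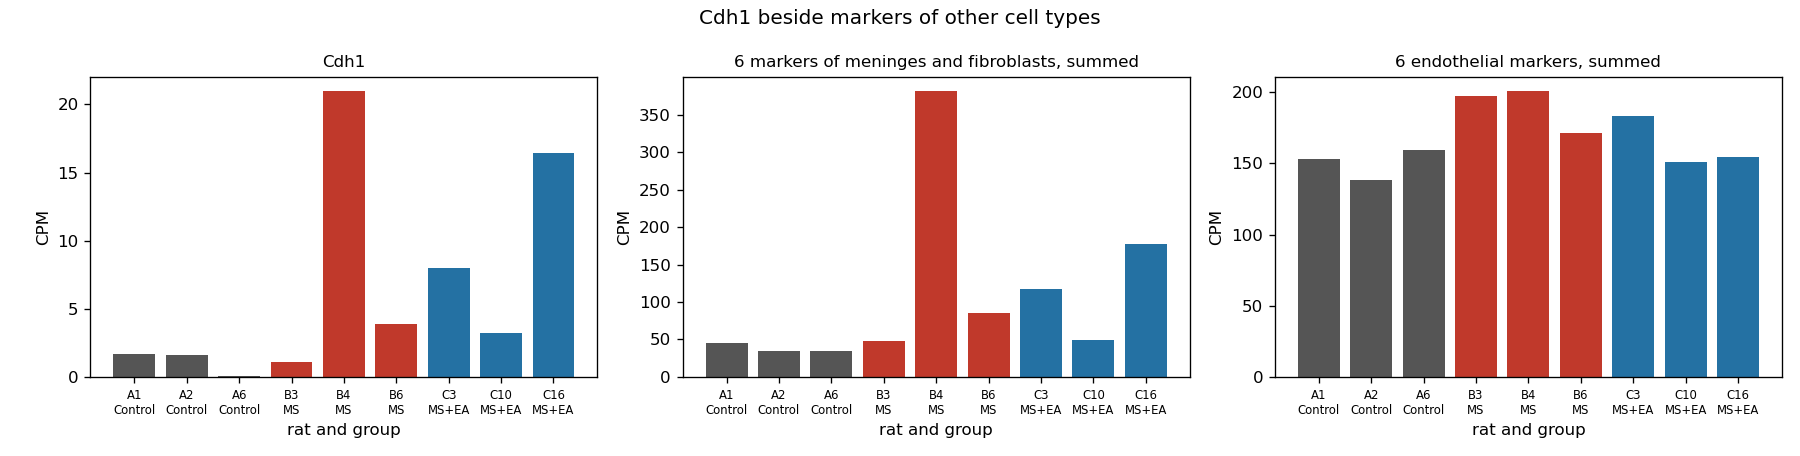
Bars of the CPM of Cdh1 (left), of 6 summed markers of meninges and fibroblasts (middle) and of 6 summed endothelial markers (right) in each rat, coloured by group. B4 is highest in all 3 panels, and C16 is second in Cdh1 (16.5) and in the meningeal sum (178) but not in the endothelial sum.

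Of the 12 type II cadherins, which sort neurons into layers and circuits, none passed the adjusted p with edgeR or DESeq2. Cdh6 had 67.5, 60.4 and 54.5 CPM in Control, 72.1, 75.3 and 83.6 in MS and 63.8, 78.9 and 64.9 in MS+EA rats. Cdh12 had 54.4, 45.7 and 46.3, then 55.0, 58.9 and 66.1, then 57.3, 65.5 and 51.6 CPM. Cdh7 had 29.2, 24.9 and 24.2, then 30.6, 30.4 and 33.9, then 28.6, 24.2 and 28.5 CPM. In each of these 3 genes the MS rats were all above the Control rats, while the MS+EA rats overlapped the Control rats. Between MS and Control the differences were 0.34 (SE 0.103) for Cdh6, 0.30 (SE 0.107) for Cdh12 and 0.27 (SE 0.106) for Cdh7, with unadjusted p of 0.006, 0.0156 and 0.0225 and edgeR adjusted p of 0.234, 0.318 and 0.371. Between MS+EA and MS they were -0.15 (SE 0.103), -0.04 (SE 0.107) and -0.22 (SE 0.106). Cdh11, known from mesenchymal cells and the gene of this type with the most counts, had edgeR adjusted p of 0.531 or more. Cdh9, a cadherin of hippocampal synapses, separated the MS+EA (21.1 to 24.2 CPM) from the MS rats (17.9 to 20.4), with 0.27 (SE 0.126, edgeR adjusted p = 0.402). Cdh22 was lower in every MS+EA rat (18.5 to 19.6 CPM) than in every MS rat (21.0 to 24.0), with -0.24 (SE 0.122, edgeR adjusted p = 0.437). Cdh24 was lower in every MS rat (14.2 to 15.5) than in every Control rat (15.9 to 18.8), with -0.20 (SE 0.124, edgeR adjusted p = 0.583).

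Cdh19, a cadherin of glial cells, had 2.52, 1.52 and 1.74 CPM in Control, 1.52, 1.75 and 2.71 in MS and 3.40, 2.48 and 4.77 in MS+EA rats. The MS+EA rats overlapped both other groups, with differences of 0.87 (SE 0.328, edgeR adjusted p = 0.14) against Control and 0.83 (SE 0.328, edgeR adjusted p = 0.336) against MS. Without B4, C3 and C16 these were 0.35 and 0.23, with C10, the lowest of its group in Cdh19, as the only MS+EA rat. Without C16 alone, the highest of its group, they were 0.60 and 0.56. The 6 oligodendrocyte markers summed to 3241, 2740 and 2125 CPM in Control, 2907, 1830.5 and 2178 in MS and 4176, 2045 and 3048 in MS+EA rats, with none at 0, and were highest in C3, which was not the highest in Cdh19. Their part in the Cdh19 values was not tested. Cdh13, which lacks a cytoplasmic part and is held by a lipid anchor, had a difference of -0.29 (SE 0.201, edgeR adjusted p = 0.642) between MS and Control, and Cdh23, a cadherin of hair cell tip links, had -0.39 (SE 0.248, edgeR adjusted p = 0.381) between MS+EA and Control.

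Summed over the 42 clustered members the level was 1468 ± 59.6 CPM in Control, 1457 ± 27.6 in MS and 1332 ± 49.0 in MS+EA rats (SD, n = 3), a log2 ratio of -0.01 for MS against Control, -0.13 for MS+EA against MS and -0.14 for MS+EA against Control. The MS+EA rats, at 1278 to 1372, lay below all other rats, at 1402 to 1518. Pcdhgc3 held 37.9 to 47.0% of these counts, and without it the sums were 802 ± 4.53, 828 ± 32.7 and 802 ± 44.2 CPM. The 31 non-clustered members summed to 2817 ± 29.2, 3009 ± 163 and 3104 ± 304 CPM, log2 ratios of 0.10, 0.04 and 0.14. These rested in part on single rats. Without B6 the first was 0.050, without C10 the second turned to -0.032 and the third was 0.064, and without B6 or C3 the second was 0.091 or 0.11 and without B3 or B4 it was 0.021 or 0.024. The near-zero clustered ratio for MS against Control lay between -0.043 without A2 and 0.014 without A1. The MS rats, at 2909 to 3198, were above the Control rats, at 2790.2 to 2848, and the MS+EA rats, at 2820.1 to 3425, were not apart from either. Without Pcdh7 and Pcdh9 the non-clustered sums were 2086 ± 15.5, 2083 ± 122 and 1977 ± 181 CPM. The opposite directions of the clustered and non-clustered sums between MS+EA and Control rats therefore rested on the counts of 3 of the 73 genes. These 3 were picked after their values were seen. Reads on the shared gamma constant exons could enter the Pcdhgc3 count, so its part may not belong to this gene alone. Over single members the medians of the log2 fold change in that comparison were 0.02 for the clustered and 0.05 for the non-clustered members.

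Genes of the same pathway were read from lists. Of 16 tested regulators of the clustered loci, such as CTCF and the cohesin that loops promoters to enhancers, 3 passed the adjusted p in edgeR between MS+EA and Control rats, all higher and under the fold limit, where 5.40% of all genes passed it and 3.21% did so on the higher side. Stag2, a cohesin subunit, had 91.5, 100.4 and 102 CPM in Control, 113, 116 and 127 in MS and 128, 145 and 137 in MS+EA rats, with no overlap between any of the groups, and a difference of 0.48 (SE 0.0746, edgeR adjusted p = 0.00795). Nipbl, the cohesin loader, had 0.25 (SE 0.0587, edgeR adjusted p = 0.0309) and Pds5a, a cohesin regulator, 0.55 (SE 0.133, edgeR adjusted p = 0.0363). Of these 16 genes 12 had higher values, beside 8574 of the 16837 genes tested, and the median was 0.15, beside 0.0055 for all genes. Of 13 genes of the WAVE complex, which clustered and delta protocadherins bind to steer actin, and of protocadherin kinases, 2 passed as lower between the same groups, where 2.19% of all genes did, Ptk2b, a focal adhesion kinase that protocadherins inhibit, by -0.29 (SE 0.0684, edgeR adjusted p = 0.0331) and Taok2, a kinase of the Pcdh8 pathway, by -0.24 (SE 0.0614, edgeR adjusted p = 0.0443). Of 16 other genes of the cadherin superfamily 1 passed, a share near that of all genes, Celsr1, a planar polarity cadherin, with -0.44 (SE 0.0999, edgeR adjusted p = 0.0283), and its MS rats overlapped its MS+EA rats, at 27.8 to 32.05 against 30.5 to 33.1 CPM. None of 15 catenins and junction partners and none of 10 sheddases and recycling genes passed, and Ctnnb1, beta-catenin, had -0.20 with an edgeR adjusted p of 0.0784. In the other comparisons no gene of these 5 lists passed, and their lists had medians between -0.09 and 0.14.

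The total was 12479905 to 19007907 counts a rat, and each MS+EA rat, at 14913736 or less, had fewer than each Control and MS rat, at 16106381 or more, and the part of depth in the differences was not tested. The members took 0.423 to 0.480% of the counts. No pair of rats in a group was a repeat of 1 library: the 9 such pairs differed by 6.11 to 13.4 times the variance of counting. Markers of cortical excitatory neurons and of cortical layers were detected in every rat, and B4 stood apart also by its choroid plexus markers, at 14.4 CPM against 2.78 to 5.77 in the other rats. Its thalamus and hypothalamus markers summed to 122.6 CPM against 67.9 to 83.0. The neuropeptide genes Avp, at 31.5 CPM against at most 1.57, and Oxt, at 16.1 CPM against at most 1.34, stood out. Of the other listed genes, Tcf7l2 was narrowly highest in B4, at 12.8 CPM against at most 11.6. Lhx2 (53.2), Slc17a6 (8.76) and Pmch (0.25) lay within the range of the other rats, so the list as a whole was not raised.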

How the data were processed

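Total RNA depleted of rRNA from 9 rats was sequenced on an Illumina instrument. Per the submitters' processing notes the authors mapped reads with HISAT2 2.0.4 to Rnor_6.0, and they deposited whole-number counts per gene, not normalized. The counting program, its strand setting and the treatment of reads with several locations are not given in the sources used here. Counts were scaled by TMM, filtered by filterByExpr (minimum count of 10) and fitted in edgeR 4.0.16 (R 4.3.3) with 1 mean per group over all 9 rats. The procedure was also run on simulated data with the same spread for every gene. That run does not cover genes as variable as Cdh1 or Pcdhga1, and no result here rests on it. Groups came from the labels. Sums carry no test, because the members were chosen with earlier results known. An exact permutation test of 3 rats against 3 also cannot go below 0.1. Alternatives were DESeq2 1.42.0, limma-trend of limma 3.58.1, bias-adjusted deviances, RLE or total counts, filters of 1 count in all or 10 in every rat, the 6 rats compared, no fold limit, each rat left out, and, chosen after seeing the data, the omission of B4, C3 and C16, of Pcdhgc3 and of Pcdh7 with Pcdh9. The members and lists were chosen with earlier results of these data known. Named were members called, the 10 with the smallest p in a comparison, the most abundant of each class, those beside the count limit, and Pcdh7 and Cdh12; others named were chosen after their values were seen.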

Additional observations from a re-analysis of the deposited data

How the results depend on the processing

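No paired analysis was possible because each rat belongs to 1 group and any 2 groups have fewer than 2 replicate numbers in common. Of 592 alternative fits of 33 named differences, 558 kept direction and side of the threshold, 17 newly passed it, 13 no longer did and 4 reversed. Members called between MS and Control were 0 as reported, 2 (Cdh1 and Pcdh7) with all genes of at least 1 count, 1 with DESeq2, with the 6 rats alone and without B4, C3 and C16, and 0 to 1 with each rat left out, the 1 being Pcdh7 without B3, C3 or C10. Between MS+EA and Control they were 1 as reported, 2 with at least 1 count and with the 6 rats alone, 4 with no fold limit, and 1 to 2 with each rat left out, the 2 being Cdh1 and Pcdh7 without B4. Between MS+EA and MS they were 0 in each alternative. Over all genes the calls were 4 (2 to 207), 3 (0 to 72) and 230 (71 to 910). For MS+EA against Control 71 were called without A1, 121 without C10 and 469 with at least 1 count, and DESeq2 called 70, 37 and 316 in the 3 comparisons. The log2 ratio of the clustered sum moved, as a median over members, to 0.069, -0.0091 and 0.019, and without Pcdhgc3 to 0.045, -0.046 and -0.000597 for MS against Control, MS+EA against MS and MS+EA against Control. That of the non-clustered sum moved to -0.0016, -0.075 and -0.077 without Pcdh7 and Pcdh9, and to 0.046 as a median in the last comparison. Reversed were Pcdh8 between MS+EA and MS without B4, C3 and C16 (0.067) and Cdh12 between MS+EA and MS without B6 (0.030) and without C16 (0.032), in a range of -0.14 to 0.032 with each rat left out, and without B4, C3 and C16 (0.11), none past the threshold in either direction. The causes of these shifts were not tested, apart from the genes or rats left out. The omission of B4, C3 and C16 leaves 1 MS+EA rat, C10, which is then assumed to vary like the rats of the other groups. C10 was the highest of its group in Pcdh8 and Cdh12. Depth limits Pcdhb12, Pcdh12, Cdh1 and Cdh19, with few counts in some rats.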
